A study of Mus musculus with 9 samples.

Results

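Fatty acid oxidation and lipid use were followed through 37 genes, taken by name from a list that covers fatty acid uptake and activation, the carnitine shuttle, the steps of mitochondrial β-oxidation, electron transfer, fuel choice and triglyceride stores. All 37 were listed, among 37840 genes in all. RNA of nuclei isolated from the ventricles of C57BL6/J mice was measured by Drop-seq, which captures each nucleus in a droplet with a barcoded bead. KO P10 libraries came from ERRαKO/ERRγKO mice at postnatal days 9 to 10, control P10 libraries from ERRαHet/ERRγWT mice of the same age, and control P6 libraries from ERRαHet/ERRγWT mice at postnatal day 6, with 3 libraries in each group. The controls therefore lacked 1 copy of ERRα themselves, and a wild-type heart was not part of the comparison. Whether the 3 libraries of a group are from different animals is not stated in the labels, and the p-values then cover only how much these libraries vary, which may be technical. Sex and the use of fresh or frozen ventricles were not recorded per library.

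Around birth the heart moves from glucose and lactate towards long-chain fatty acids as its main fuel. Fatty acids enter the cell, are bound by carrier proteins, are activated to acyl-CoA, cross the inner mitochondrial membrane as carnitine esters and are shortened in cycles of dehydrogenation, hydration, a second dehydrogenation and thiolysis. ERRα and ERRγ are nuclear receptors, encoded by Esrra and Esrrg, that bind DNA at variants of the letters AAGGTCA and are known to activate genes of this pathway, as is PPARα, encoded by Ppara.

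The libraries held 4130387 to 5769630 UMIs in KO P10, 4949999 to 5344130 in control P10 and 2608067 to 3745640 in control P6. Clusters of nuclei were named from marker genes as endothelial-like, endocardial-like, fibroblast-like or cardiomyocyte-like, and UMIs were summed per library over each class. Cardiomyocyte-like nuclei numbered 748 to 1256 per KO P10 library, 749 to 1430 per control P10 library and 878 to 1159 per control P6 library. The cardiomyocyte markers made up 6.01% to 7.04%, 6.02% to 6.97% and 5.63% to 5.85% of the UMIs in these sums. They took between 0.802% and 3.63% in fibroblast-like and between 0.772% and 2.91% in endocardial-like nuclei of any group. In endothelial-like nuclei they took 3.53% to 5.46% in KO P10, 3.52% to 5.02% in control P10 and 1.26% to 1.89% in control P6. The class was spread over 3 clusters in unequal shares: in KO P10, 1249 nuclei fell in cluster 8, 1030 in cluster 9 and 751 in cluster 7, while control P10 had 15 in cluster 9 and control P6 had 2882 in cluster 7. KO P10 libraries 1 and 2 shared 465 barcodes, against 0 to 12 for any other pair, and the shared barcodes were left out of KO P10 library 2. Xist and Y-linked RNA differed between libraries: all 3 control P6 libraries had at least 4656 Xist UMIs and at most 35 Y-linked UMIs, while both P10 groups held libraries with 1492 or more Y-linked UMIs. KO P10 library 2 held both, with 889 Xist and 1702 Y-linked UMIs, and control P10 library 1 had 1934 Xist and 12 Y-linked UMIs.

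A further set of droplets was poor in Malat1, an RNA that stays in the nucleus. Malat1 made up 0.358% to 1.96% of UMIs there in KO P10, 0.616% to 2.79% in control P10 and 1.36% to 2.85% in control P6, against at least 6.28% in every library of cardiomyocyte-like nuclei. Malat1-poor droplets made up 26.3% to 44.8% of KO P10 droplets, 18.1% to 30.3% of control P10 droplets and 8.89% to 13.4% of control P6 droplets. Cardiomyocyte markers made up 5.51% to 10.1% of their UMIs in KO P10, 6.03% to 7.14% in control P10 and 5.72% to 7.23% in control P6. Pooled over the libraries of a group, the 37 genes took 1.18% of Malat1-poor UMIs in KO P10, 1.67% in control P10 and 2.02% in control P6, and 0.473%, 0.501% and 0.603% of the UMIs of cardiomyocyte-like nuclei of the same groups. Per library, their share in cardiomyocyte-like nuclei was 0.443% to 0.544% in KO P10, 0.377% to 0.566% in control P10 and 0.538% to 0.701% in control P6, so the P10 groups overlapped, both with a mean of 0.480%. Ribosomal protein genes also took more of the UMIs of these droplets, 1.05% to 1.43% in control P10 against 0.149% to 0.363% in cardiomyocyte-like nuclei of that group. The Malat1-poor droplets were spread unequally over their clusters. Control P6 had 662 in cluster 0, 31 in cluster 2 and 96 in cluster 11. In the same order control P10 had 36, 585 and 1303, and KO P10 had 18, 871 and 2380.

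The sequences before the start sites are shown for members that fell in cardiomyocyte-like nuclei of the knockout, Slc27a1, Slc22a5 and Acads, and for Acadvl and Acadm, whose windows hold the core letters of the receptors' binding site. Cpt1b also fell there but had no window to show. Each window runs from 250 bases before to 50 bases after a RefSeq transcript start on GRCm38.p6, and for Slc27a1 it is 1 of 3 listed windows. It is written along the gene's own strand. Capitals mark AGGTCA or AAGGTCA on either strand, and TGACCTT in Acadm is AAGGTCA read on the opposite strand. The positions are chr8:71568621-71568920 (plus strand) for Slc27a1, chr11:53891654-53891953 (minus) for Slc22a5, chr5:115119297-115119596 (minus) for Acads, chr11:70015379-70015678 (minus) for Acadvl and chr3:153944594-153944893 (minus) for Acadm.
Slc27a1: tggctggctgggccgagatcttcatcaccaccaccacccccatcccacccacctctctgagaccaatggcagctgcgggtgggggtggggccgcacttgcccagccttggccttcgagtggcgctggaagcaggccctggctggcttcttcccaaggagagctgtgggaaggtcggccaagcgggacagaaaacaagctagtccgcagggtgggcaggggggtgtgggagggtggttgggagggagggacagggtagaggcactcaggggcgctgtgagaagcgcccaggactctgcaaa
Slc22a5: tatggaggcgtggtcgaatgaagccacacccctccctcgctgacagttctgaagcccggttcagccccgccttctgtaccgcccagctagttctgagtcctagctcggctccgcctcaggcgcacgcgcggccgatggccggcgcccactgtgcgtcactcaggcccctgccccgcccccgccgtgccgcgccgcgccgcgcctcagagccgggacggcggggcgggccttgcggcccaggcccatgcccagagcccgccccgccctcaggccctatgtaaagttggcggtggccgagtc
Acads: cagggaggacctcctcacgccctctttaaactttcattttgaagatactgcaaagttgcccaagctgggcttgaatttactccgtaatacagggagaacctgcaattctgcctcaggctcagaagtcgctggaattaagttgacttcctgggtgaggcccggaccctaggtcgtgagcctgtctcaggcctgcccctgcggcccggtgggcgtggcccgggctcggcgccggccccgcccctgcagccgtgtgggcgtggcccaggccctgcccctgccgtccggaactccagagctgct
Acadvl: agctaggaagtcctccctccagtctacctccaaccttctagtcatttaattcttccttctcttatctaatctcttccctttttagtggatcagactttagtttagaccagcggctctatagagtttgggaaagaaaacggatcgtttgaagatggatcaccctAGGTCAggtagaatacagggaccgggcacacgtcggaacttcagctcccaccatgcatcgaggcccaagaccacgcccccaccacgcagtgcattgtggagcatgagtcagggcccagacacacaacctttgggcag
Acadm: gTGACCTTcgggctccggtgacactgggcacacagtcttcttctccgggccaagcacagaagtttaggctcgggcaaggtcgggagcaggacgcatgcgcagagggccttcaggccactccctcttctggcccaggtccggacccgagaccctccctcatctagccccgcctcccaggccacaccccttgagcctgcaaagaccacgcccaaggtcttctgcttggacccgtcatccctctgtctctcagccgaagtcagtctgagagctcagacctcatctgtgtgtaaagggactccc

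Of the 37 genes, 31 had such a window in the RefSeq table, all but Cpt1b, Crat, Acaa2, Decr1, Acot13 and Dgat2. The full ERR element searched, TNAAGGTCA, was in 0 of these 31 and in 1.43% of all genes, and the direct repeat of AGGTCA with any 1 base between its copies, a PPAR-type element, was in 0 of 31 and in 0.048% of all genes. The shorter letters were searched after that result was seen. AAGGTCA, which contains AGGTCA, was in the windows of 2 of 31 members, Acadm and Acacb, or 6.45%, against 5.38% of all genes. AGGTCA was in those of 7 of 31, or 22.6%, against 18.1% of all genes. These 7 were Acadm, Acacb, Ucp3, Echs1, Acadvl, Plin5 and Cpt1a. Both strands were searched, and a match describes letters only.

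Levels are CPM values of edgeR, which scale the UMIs of the genes that passed its filter to a common total with TMM factors. The targeted genes were measured first. Esrra had 10.8, 25.9 and 22.2 CPM in cardiomyocyte-like nuclei of the KO P10 libraries 1 to 3, 113, 100 and 76.1 in control P10 and 98.4, 140 and 127 in control P6. Every KO P10 library was below every control library, with a log2 fold change of -2.24 ± 0.30 (SE) against control P10 (edgeR quasi-likelihood F test; p adjusted after Benjamini and Hochberg over all genes tested, adjusted p = 0.00018972). Esrrg had 893, 675 and 805 CPM in KO P10, 2085, 1343 and 1702 in control P10 and 643, 864 and 517 in control P6. It was lower in KO P10 than in control P10 (log2 -1.11 ± 0.28, edgeR adjusted p = 0.013162) and higher in control P10 than in control P6 (log2 1.34 ± 0.28, edgeR adjusted p = 0.003962). Which part of each gene is deleted is not given in the sources used here, and UMIs of exons and introns outside it would still be counted.

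In cardiomyocyte-like nuclei of the knockout, 4 of the 36 members tested fell relative to control P10 and 0 rose. They were Slc27a1, Cpt1b, Slc22a5 and Acads. These act at fatty acid entry, the linking of long-chain acyl groups to carnitine, carnitine uptake and the first step of short-chain oxidation. Among all 10327 genes tested, 6.82% fell and 7.1% rose. At an unadjusted edgeR p under 0.05, in either direction, there were 10 members, or 27.8%, where 28.3% of all genes were. The median log2 fold change was -0.32 over the members and 0.01 over all genes, with 27 members negative and 9 positive. With classes set from each nucleus's own marker UMIs the medians were -0.02 over the members and -0.04 over all genes, and 1 member was called; without control P10 replicate 3, KO P10 replicate 2 or KO P10 replicate 3, 2 were. All 3 KO P10 libraries lay below all 3 control P10 libraries for 9 members, or 25% of those tested, where 15% of all genes did so, and above them for 0 members, where 16.1% of all genes did so. Acsl5, an acyl-CoA synthetase with 65 UMIs over the 9 libraries, was the member not tested.

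Slc27a1 encodes FATP1, a fatty acid transport protein with acyl-CoA synthetase activity, and lies at chr8:71568882-71587302 (GRCm38, plus strand). It had 28.1, 40 and 37.3 CPM in KO P10, 113, 136 and 115 CPM in control P10, and 186, 148 and 171 CPM in control P6. The 3 groups did not overlap, with KO P10 lowest and control P6 highest. The log2 fold change of KO P10 over control P10 was -1.78 ± 0.24 (edgeR adjusted p = 0.00018972), and its call held in each of the 20 alternative settings and libraries left out. Control P10 against control P6 gave -0.47 ± 0.22 (edgeR adjusted p = 0.14254).

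The other uptake genes did not pass the test in the knockout comparison. Fabp3, the heart fatty acid binding protein and the most abundant member, had 1452, 1258 and 986 CPM in KO P10, 587, 1102 and 840 CPM in control P10, and 1230, 1498 and 1779 CPM in control P6. The P10 groups overlapped (log2 0.54 ± 0.29, edgeR adjusted p = 0.22205), while every control P10 library lay below every control P6 library (log2 -0.83 ± 0.29, edgeR adjusted p = 0.053233). Of the last 500 exonic bases of Fabp3, 31.7% of 40-base stretches also occur in Fabp3-ps1, a pseudogene listed in the tables, so reads of the pair may be divided. Fabp3-ps1 itself was lower in control P10 than in control P6 (log2 -2.27 ± 0.32, edgeR adjusted p = 0.00039991). Acsl1 and Acsl4, acyl-CoA synthetases, had log2 fold changes of -0.02 ± 0.21 and -0.42 ± 0.29 in the knockout comparison.

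**Figure D1:**
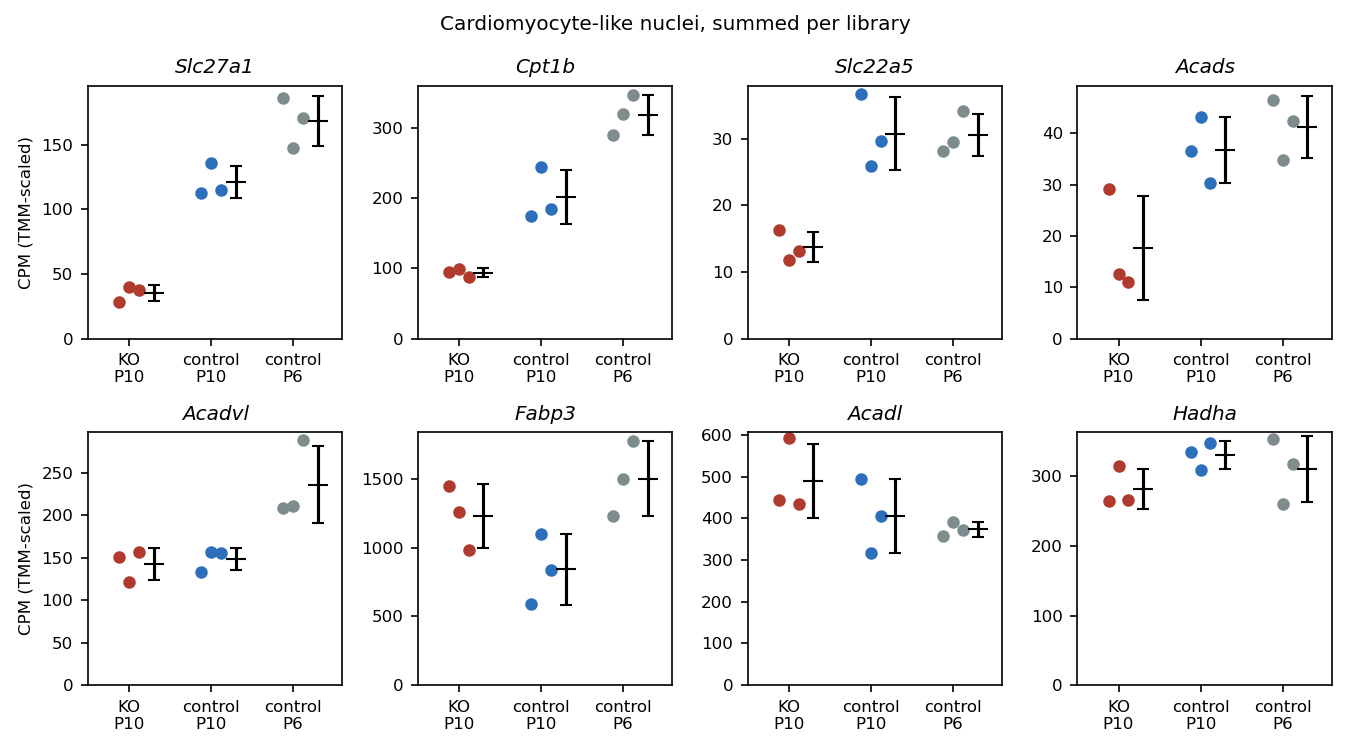
TMM-scaled CPM (vertical axes) of 8 members in cardiomyocyte-like nuclei, with 1 point per library and, beside each group, the mean and SD over 3 libraries. KO P10 points lie below all control points for Slc27a1, Cpt1b, Slc22a5 and Acads, while for Acadvl, Fabp3, Acadl and Hadha they overlap those of control P10.

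Cpt1b, the muscle form of carnitine palmitoyltransferase, links long-chain acyl groups to carnitine at the outer mitochondrial membrane, and lies at chr15:89416405-89425863 (minus strand). It had 95.3, 99.3 and 87.8 CPM in KO P10, 174, 245 and 184 CPM in control P10, and 290, 320 and 347 CPM in control P6. The groups did not overlap, and the order was again KO P10, control P10, control P6 from low to high. KO P10 was lower than control P10 (log2 -1.10 ± 0.22, edgeR adjusted p = 0.0045756), a call lost only when classes were set from each nucleus's own marker UMIs (log2 -0.79). Control P10 was lower than control P6 (log2 -0.66 ± 0.22, edgeR adjusted p = 0.044091), a call lost in 12 of 20 alternative settings and libraries left out.

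Cpt1b overlaps the read-through gene Gm44502 on the same strand, which holds 79% of its terminal 40-base stretches. Its neighbour Chkb, choline kinase beta, was looked up after these values were seen. Chkb had 73.6, 66.7 and 89.8 CPM in KO P10, 49.8, 89.7 and 68.0 CPM in control P10, and 186, 198 and 239 CPM in control P6. Its P10 groups overlapped (log2 0.12 ± 0.25, edgeR adjusted p = 0.79795), and control P10 was lower than control P6 (log2 -1.56 ± 0.25, edgeR adjusted p = 0.00088234). The difference with age thus appeared in both neighbours, and the difference with genotype was called for Cpt1b. Whether reads of read-through transcripts take part was not tested.

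Slc22a5 encodes OCTN2, the carnitine transporter of the cell membrane, at chr11:53864542-53891660 (minus strand). It had 16.2, 11.9 and 13.1 CPM in KO P10, 36.6, 25.9 and 29.7 CPM in control P10, and 28.1, 29.5 and 34.1 CPM in control P6. All KO P10 libraries lay below all 6 control libraries, and the control groups overlapped. The log2 fold change of KO P10 over control P10 was -1.14 ± 0.29 (edgeR adjusted p = 0.016191), a call lost without control P10 replicate 3, KO P10 replicate 2 or KO P10 replicate 3 and in sums over all barcodes, and it was not tested with own-marker classes. These counts rest on 13 to 16 UMIs per KO P10 library, and 39.5% of its terminal 40-base stretches are shared with relatives including Slc22a21 and Slc22a4.

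The other carnitine shuttle genes gave log2 fold changes of 0.04 ± 0.23 for Cpt1a, the form of Cpt1b widespread outside muscle, -0.59 ± 0.29 for Cpt2, which rebuilds acyl-CoA inside the mitochondrion, -0.10 ± 0.22 for Crat, carnitine acetyltransferase, and -0.25 ± 0.23 for Slc25a20, the carnitine carrier of the inner membrane. None of these 4 passed the test in the knockout comparison by edgeR. Malonyl-CoA restrains the step of Cpt1b and Cpt1a. Acacb, the acetyl-CoA carboxylase that makes it at the mitochondrion, had 199, 296 and 232 CPM in KO P10, 312, 318 and 325 CPM in control P10, and 348, 321 and 313 CPM in control P6. Its KO P10 libraries lay below all control libraries without passing the test (log2 -0.39 ± 0.22, edgeR adjusted p = 0.25601). Mlycd, which degrades malonyl-CoA, had a log2 fold change of 0.35 ± 0.27.

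The acyl-CoA dehydrogenases, which open each β-oxidation cycle and differ in the chain length they take, did not move together. Acads, for short chains, lies at chr5:115110299-115119346 (minus strand) and had 29.2, 12.6 and 11.1 CPM in KO P10, 36.6, 43.1 and 30.3 CPM in control P10, and 46.5, 34.7 and 42.4 CPM in control P6. KO P10 replicate 1, at 29.2 CPM, was close to the lowest control P10 library, at 30.3 CPM, and the groups did not overlap. The log2 fold change of KO P10 over control P10 was -1.09 ± 0.34 (edgeR adjusted p = 0.040795), on 11 to 27 UMIs per KO P10 library. That call was lost in 11 of 20 alternatives, with log2 values between -0.87 and -1.22 in those.

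Acadl, for long chains, had 443, 592 and 435 CPM in KO P10, 495, 317 and 406 CPM in control P10, and 357, 392 and 371 CPM in control P6, and the groups overlapped in both comparisons. Its log2 fold change was 0.28 ± 0.24 in the knockout comparison and 0.12 ± 0.24 with age. Acadm, for medium chains, gave 0.13 ± 0.22 in the knockout comparison. Acadvl, for very long chains, lies at chr11:70010183-70015411 (minus strand) and had 150, 121 and 156 CPM in KO P10, 133, 157 and 155 CPM in control P10, and 209, 210 and 289 CPM in control P6. The P10 groups overlapped (log2 -0.07 ± 0.23, edgeR adjusted p = 0.87912), and control P10 was lower than control P6 (log2 -0.66 ± 0.22, edgeR adjusted p = 0.047958). That call with age was lost in 13 of 20 alternatives and its direction turned in 2 others, to 0.52 in sums over all barcodes and to 0.21 when the Malat1-poor cardiomyocyte cluster was added. Dvl2 overlaps Acadvl on the opposite strand, and the use of strand in counting was not recorded.

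All 5 genes of hydration, second oxidation and thiolysis had negative log2 fold changes in cardiomyocyte-like nuclei of the knockout, between -0.74 and -0.23, and 0 of them passed the test there. Hadha, the alpha subunit of the trifunctional protein, had 265, 315 and 266 CPM in KO P10, 335, 309 and 349 CPM in control P10, and 354, 260 and 318 CPM in control P6. These groups overlapped (log2 -0.23 ± 0.22). Hadhb, its beta subunit, had a log2 fold change of -0.65 ± 0.24 (edgeR adjusted p = 0.084094), and Acaa2, a thiolase of the matrix, -0.74 ± 0.27 (edgeR adjusted p = 0.076311).

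Electron transfer flavoprotein and its dehydrogenase carry electrons from acyl-CoA dehydrogenases to ubiquinone. Etfa had 173, 216 and 210 CPM in KO P10, 275, 306 and 344 CPM in control P10, and 297, 249 and 283 CPM in control P6. Every KO P10 library lay below every control library, and the test was missed (log2 -0.63 ± 0.22, edgeR adjusted p = 0.06167). Etfb gave -0.28 ± 0.26 and Etfdh -0.51 ± 0.23. The 4 genes of unsaturated and other acyl groups, Eci1, Eci2, Decr1 and Hsdl2, lay between -0.42 and 0.30. Acot2, Acot13, Pdk4, the kinase that holds back pyruvate dehydrogenase, and Ucp3, an uncoupling protein of muscle, lay between -0.36 and 0.33.

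The 4 genes of lipid droplets and triglyceride were all negative in the knockout comparison, with a median log2 fold change of -0.91. Pnpla2, adipose triglyceride lipase, had 8.66, 11.9 and 8.07 CPM in KO P10, 13.2, 21.3 and 24.1 CPM in control P10, and 18.4, 22.1 and 26.8 CPM in control P6. Its KO P10 libraries lay below all control libraries (log2 -1.06 ± 0.35, edgeR adjusted p = 0.051836). Lipe, hormone-sensitive lipase, Dgat2, which completes triglyceride synthesis, and Plin5, a droplet coat protein of oxidative tissue, gave -0.40 ± 0.28, -0.88 ± 0.46 and -0.94 ± 0.37.

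Shares of some other markers differed between KO P10 and control P10 in the same sums, in both directions. Erythroid markers took 0.289% to 1.01% of the UMIs of cardiomyocyte-like nuclei in KO P10 and 0.125% to 0.227% in control P10. Endocardial markers were also higher, with 0.0306% to 0.0372% and 0.0195% to 0.0231%. Pericyte markers were lower, with 0.0455% to 0.0609% and 0.0698% to 0.0727%. Fibroblast markers overlapped, with 0.164% to 0.414% and 0.157% to 0.198%. So did endothelial markers, with 0.0492% to 0.0538% and 0.0382% to 0.0721%. Ribosomal protein genes took 0.487% to 0.903% in KO P10 and 0.149% to 0.363% in control P10. Malat1 took 6.28% to 14.9% and 11.1% to 13.2%. Mitochondrial genes, left out of the sums, held 7.13%, 14.7% and 8.84% of all UMIs of KO P10 libraries 1 to 3. In control P10 libraries 1 to 3 they held 40.8%, 8.56% and 17.8%. The part of these shares in the differences between the groups was not tested.

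Most members took a larger share of the UMIs of Malat1-poor droplets than of nuclei. Levels were compared as shares of the UMIs of the same library, so that each gene was set against itself. The ratio of Malat1-poor droplets to cardiomyocyte-like nuclei was above 1 in all 9 libraries for 26 of 37 members, or 70.3%, below 1 in all 9 for 4 members, or 10.8%, and mixed for 7. Of all 10466 genes with at least 50 UMIs in both sums, a minimum set after the data were seen, 28.4% were above 1 in all 9 libraries and 21.2% below. Fabp3 had a ratio of 3.93 ± 0.65 in KO P10, 6.43 ± 1.90 in control P10 and 6.08 ± 1.30 in control P6 (SD, n = 3 each), and Etfb and Acot2 had median ratios of 5.70 and 5.10 over the 9 libraries. The 4 members lower in Malat1-poor droplets in every library were Ucp3, Acacb, Slc22a5 and Slc27a1, with median ratios of 0.30, 0.35, 0.36 and 0.43. Of the 4 members that fell in knockout nuclei, Slc27a1 and Slc22a5 were thus lower in Malat1-poor droplets in every library. Acads was higher there in all 9 libraries (median ratio 4.19) and Cpt1b in 6 (median ratio 1.12). The 9 genes of the β-oxidation cycle, from Acadvl to Acaa2 and with Acads among them, all belonged to the 26 with higher levels in Malat1-poor droplets. These droplets mix cell types, so the ratios do not give a place within the cell.

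**Figure D2:**
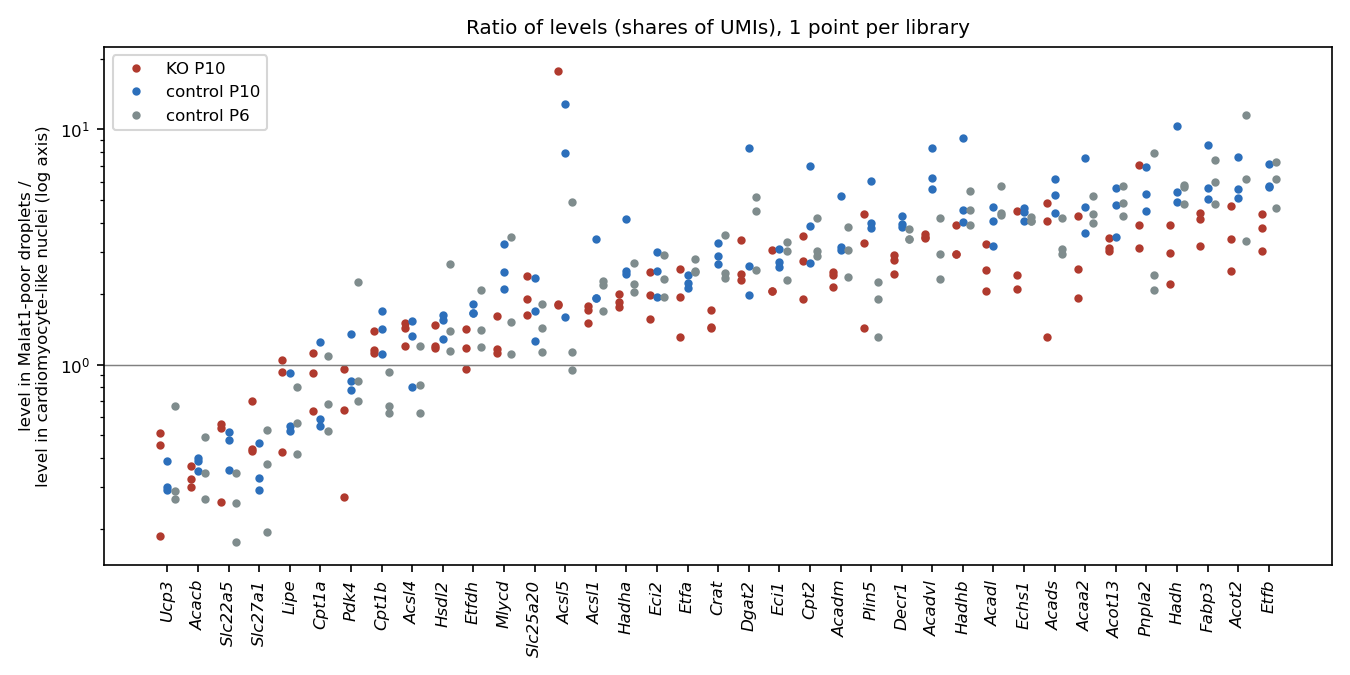
Ratio of each member's level in Malat1-poor droplets to that in cardiomyocyte-like nuclei of the same library (log axis, both as shares of UMIs), with 1 point per library and members ordered by their median. Points of Ucp3, Acacb, Slc22a5 and Slc27a1 lie below 1 in all libraries, and those of 26 members lie above 1 in all libraries.

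In Malat1-poor droplets, a comparison added after the data were examined, 7 of 36 members tested fell in KO P10 relative to control P10 and 0 rose. Among all 9939 genes tested there, 2.42% fell and 2.27% rose. The median log2 fold change was -0.50 over the members and -0.04 over all genes. All KO P10 libraries lay below all control P10 libraries for 16 members, or 44.4%, where 10.9% of all genes did so. The genes that fell were Acads, Plin5, Acaa2, Hadhb, Cpt1b, Hadh and Cpt2, of which 4 belong to the β-oxidation cycle, 2 to the carnitine shuttle and 1 to the lipid droplet. Slc22a5 was the member not tested there. The count was 4 with no filter on low counts, with only the P10 libraries in the fit and without control P10 replicate 2, control P10 replicate 3 or KO P10 replicate 3. Acads, Plin5 and Acaa2 were called in all 14 alternatives, Hadhb in 13, Cpt1b in 7, Hadh in 5 and Cpt2 in 3.

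Acads had 39.1, 54.0 and 56.7 CPM in KO P10, 184, 236 and 123 CPM in control P10, and 190, 116 and 141 CPM in control P6. Its KO P10 libraries were all lower than its control libraries, with a log2 fold change of -1.88 ± 0.31 over control P10 (edgeR adjusted p = 0.0027959). Plin5 had 23.8, 30.5 and 27.9 CPM in KO P10, 79.4, 90.9 and 69.6 CPM in control P10, and 61.9, 53.2 and 61.2 CPM in control P6. The 3 groups of Plin5 did not overlap, and KO P10 was lowest (log2 -1.57 ± 0.28 over control P10, edgeR adjusted p = 0.0040498).

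Acaa2 had 265, 299 and 350 CPM in KO P10, 707, 964 and 742 CPM in control P10, and 837, 671 and 784 CPM in control P6 (log2 -1.40 ± 0.27 for KO P10 over control P10, edgeR adjusted p = 0.0068507). Hadhb had 216, 260 and 212 CPM in KO P10, 651, 546 and 455 CPM in control P10, and 642, 477 and 549 CPM in control P6 (log2 -1.26 ± 0.27, edgeR adjusted p = 0.012227). For both thiolysis genes the KO P10 libraries lay below all 6 control libraries, and the control groups overlapped. Of the terminal 40-base stretches of Hadhb, 45% also occur in Gm13910 or Gm9108. Hadh, the hydroxyacyl-CoA dehydrogenase for shorter chains, had 139, 155 and 233 CPM in KO P10, 285, 389 and 423 CPM in control P10, and 452, 368 and 376 CPM in control P6 (log2 -1.06 ± 0.28, edgeR adjusted p = 0.038578).

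Cpt1b had 112, 116 and 128 CPM in KO P10, 241, 282 and 239 CPM in control P10, and 262, 215 and 262 CPM in control P6. In these droplets its control groups overlapped (log2 0.05 ± 0.25, edgeR adjusted p = 0.92394), and KO P10 was lower than control P10 (log2 -1.10 ± 0.25, edgeR adjusted p = 0.016369). Cpt2 had 62.9, 87.2 and 79.2 CPM in KO P10, 134, 176 and 132 CPM in control P10, and 124, 80.5 and 88.4 CPM in control P6 (log2 -0.96 ± 0.27 for KO P10 over control P10, edgeR adjusted p = 0.047185). KO P10 of Cpt2 was below control P10 in every library and overlapped control P6. Slc27a1 had a log2 fold change of -1.09 ± 0.34 there (edgeR adjusted p = 0.07358), and Fabp3 0.03 ± 0.33.

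**Figure D3:**
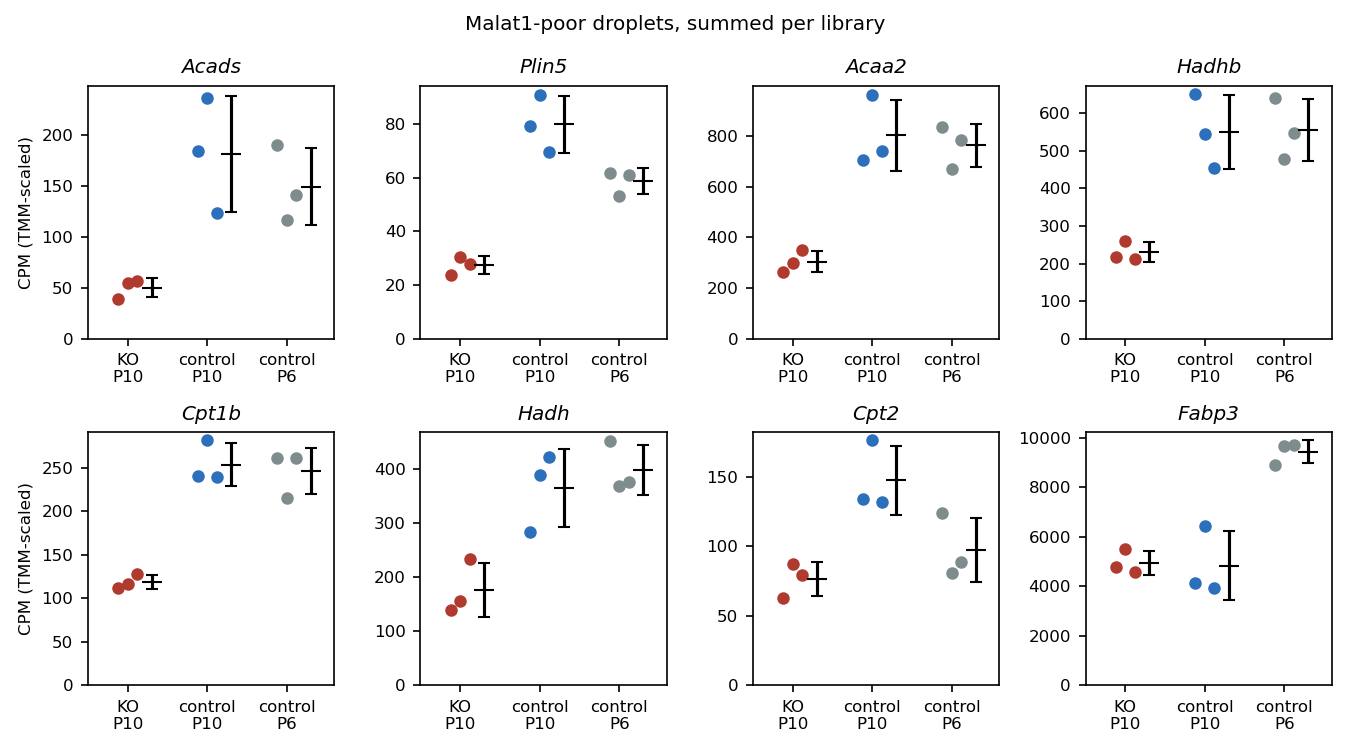
TMM-scaled CPM (vertical axes) of the 7 members that fell in Malat1-poor droplets of the knockout and of Fabp3, with 1 point per library and the mean and SD over 3 libraries beside each group. KO P10 points of the 7 genes lie below all control P10 points, and those of Fabp3 overlap them.

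Malat1-poor droplets mix cell types, and fewer droplets of a type cannot be told apart from less RNA per cell in these sums. Erythroid markers took 0.789% to 2.65% of their UMIs in KO P10 and 0.572% to 0.913% in control P10, fibroblast markers 0.51% to 2.08% and 0.595% to 1.49%, and ribosomal protein genes 1.60% to 2.29% and 1.05% to 1.43%. The share of Malat1-poor droplets itself was 44.8% in KO P10 replicate 1. The comparison was therefore repeated in the 1 Malat1-poor cluster led by cardiomyocyte genes, with 204 to 422 droplets per KO P10 library and 31 to 319 per control P10 library. There 6 of 34 members tested fell and 0 rose, where 2.98% of all 5774 genes tested fell and 2.96% rose, and 32 of the 34 had negative log2 fold changes (median -0.56, over all genes 0.04). The 6 were Acads, Acaa2, Echs1, Hadh, Hadhb and Plin5. Echs1, the enoyl-CoA hydratase, had a log2 fold change of -1.21 ± 0.32 (edgeR adjusted p = 0.022322), and Cpt1b missed the threshold at -0.97 ± 0.30 (edgeR adjusted p = 0.053759). Cluster limits were drawn from the same libraries, and the part of the other markers was not tested. Control P10 library 1, with 31 droplets in this cluster, was under the minimum of 50 nuclei per library set for testing a class.

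**Figure D4:**
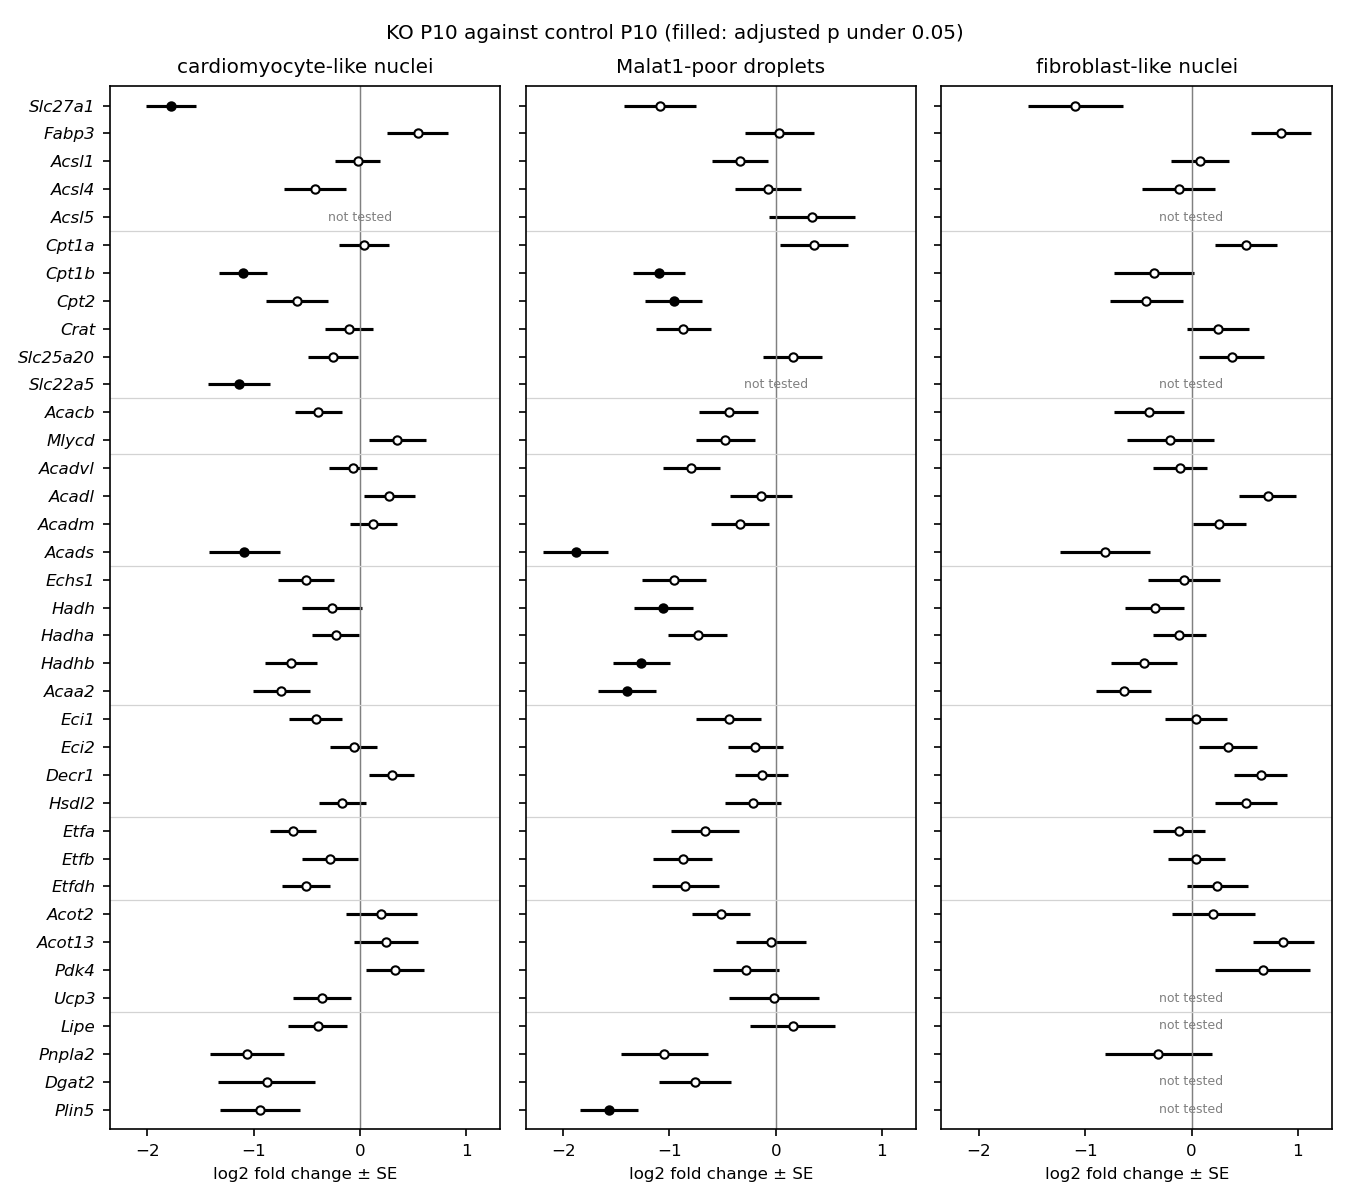
Log2 fold change ± SE of KO P10 over control P10 for each member (rows, grouped by role from uptake at the top to lipid droplets at the bottom) in cardiomyocyte-like nuclei, Malat1-poor droplets and fibroblast-like nuclei. Filled points passed the threshold of adjusted p 0.05: 4 in cardiomyocyte-like nuclei, 7 in Malat1-poor droplets and 0 in fibroblast-like nuclei.

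The comparison with age shares its control P10 libraries with the knockout comparison. Between control P10 and control P6, 2 of 36 members fell in cardiomyocyte-like nuclei, Cpt1b and Acadvl, and 0 rose, where 9.29% of all genes tested fell and 8.59% rose. The members' median log2 fold change was -0.04, as against -0.03 over all genes. The members' median was -0.36 with own-marker classes, 0.38 over all barcodes and 0.23 with the Malat1-poor cardiomyocyte cluster added. Over all barcodes, which take every cell type together, 8 members rose and 0 fell. Calls over all genes were also more frequent in that setting, as given in the closing section, and their share by direction is not given here. Without control P10 replicate 1, 2 members rose and 0 fell, and without control P6 replicate 2 or 3, control P10 replicate 3 or KO P10 replicate 1 or 3, 0 were called. Control P10 lay below control P6 in every library for 5 members, or 13.9%, where 19.4% of all genes did so, and above it for 2 members, Acsl1 and Pdk4, or 5.6%, where 17.6% of all genes did so. Acsl1 had a log2 fold change of 0.45 ± 0.22 and Pdk4 of 0.70 ± 0.28 (edgeR adjusted p = 0.15194 and 0.090933). In these sums Malat1 took 11.1% to 13.2% of UMIs in control P10 and 15.3% to 21.0% in control P6, and ribosomal protein genes 0.149% to 0.363% and 0.489% to 0.744%. Mitochondrial genes, which were left out of the sums, held 40.8%, 8.56% and 17.8% of all UMIs of control P10 libraries 1 to 3 and 2.61%, 1.15% and 0.89% of those of control P6. The part of these shares in the differences with age, and that of the sex-linked RNA given above, was not tested. In Malat1-poor droplets 0 of 36 members were called with age, where 7.23% of all genes fell and 3.75% rose. At an unadjusted p under 0.05 there were 3 members, or 8.3%, where 25.1% of all genes were, and DESeq2 called 1 member. Malat1-poor droplets of control P6 and control P10 came mostly from different clusters, as given above, so this comparison sets unlike droplets side by side.

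**Figure D5:**
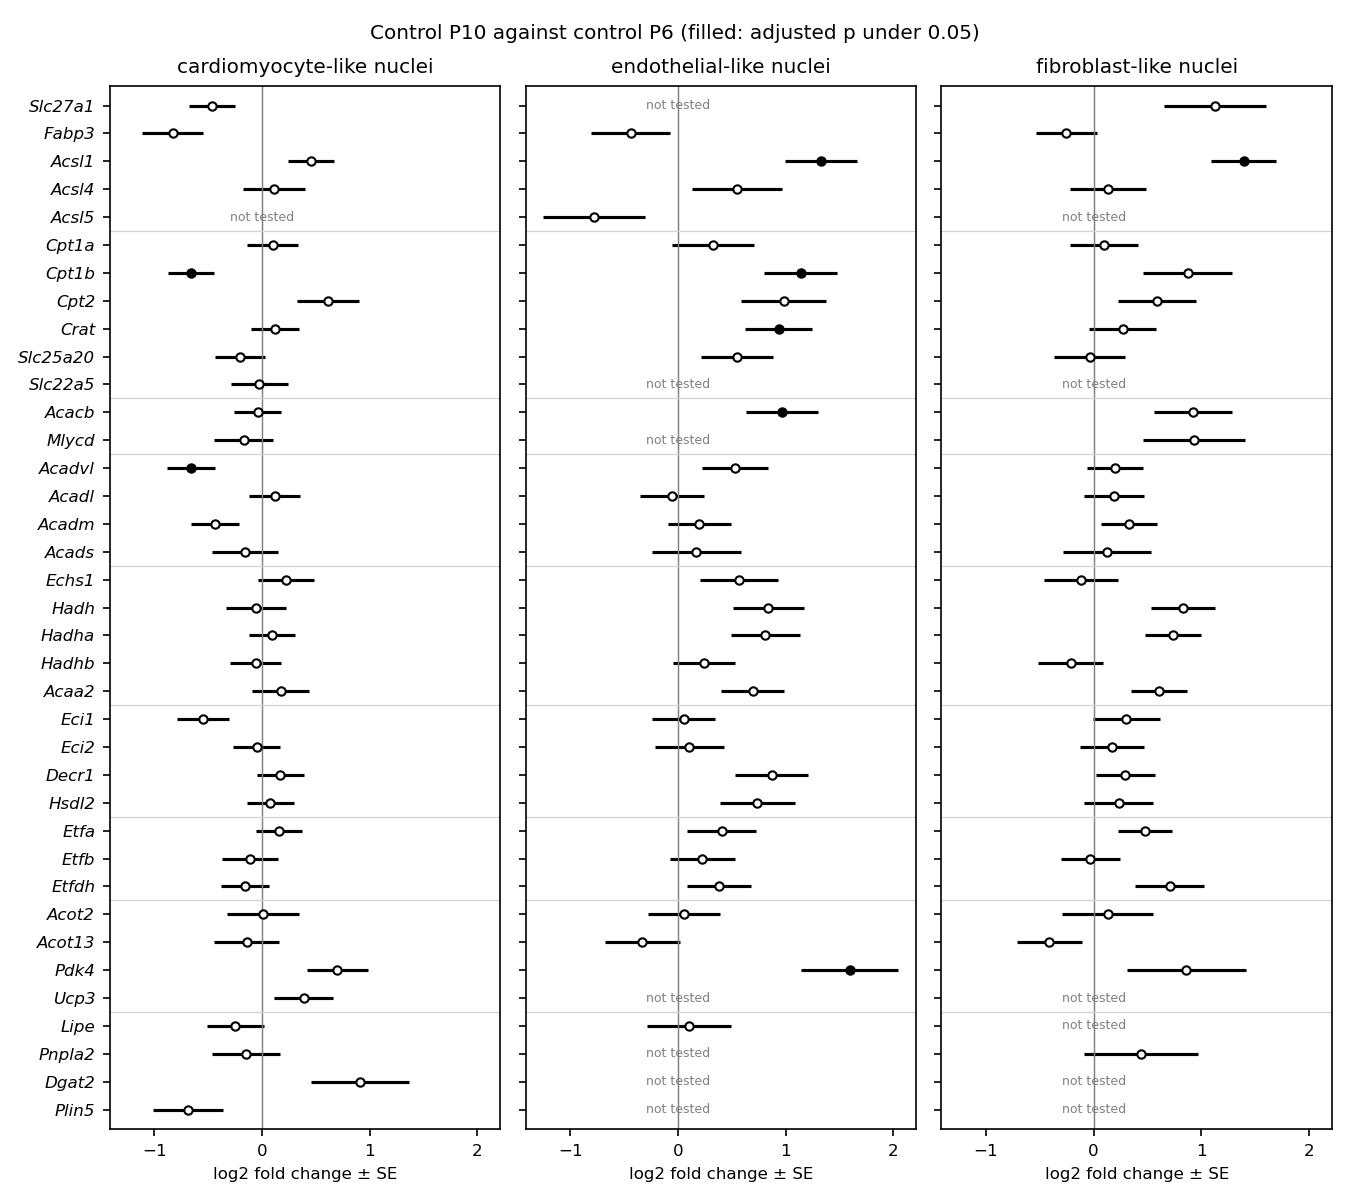
Log2 fold change ± SE of control P10 over control P6 for each member (rows, grouped by role) in cardiomyocyte-like, endothelial-like and fibroblast-like nuclei. Filled points passed the threshold of adjusted p 0.05: 2 below zero in cardiomyocyte-like nuclei, 5 above zero in endothelial-like nuclei and 1 above zero in fibroblast-like nuclei.

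The members' median log2 fold change with age was 0.47 in endothelial-like nuclei and 0.29 in fibroblast-like nuclei, where all genes gave 0.00 and -0.03. In endothelial-like nuclei 5 of 30 members tested rose in control P10 relative to control P6 and 0 fell, where 14% of all genes rose and 13.6% fell. The count was 2 with DESeq2, 3 with no filter on low counts, 9 with the replicate block, 1 without control P6 replicate 2, 2 without control P10 replicate 3 and 8 without control P6 replicate 3 or KO P10 replicate 1, and Acsl1 was called in all 13 alternatives. Acsl1 had 266, 266 and 234 CPM in control P10 and 93.9, 58.1 and 152 CPM in control P6 (log2 1.33 ± 0.33, edgeR adjusted p = 0.0040915). Cpt1b had 92.1, 152 and 123 CPM in control P10 and 54.1, 44.7 and 76.2 CPM in control P6 (log2 1.14 ± 0.34, edgeR adjusted p = 0.013799), so its groups did not overlap, and whether its change differed from that in cardiomyocyte-like nuclei was not tested for this pair of classes. Crat, Acacb and Pdk4 rose by log2 values of 0.93 ± 0.31, 0.97 ± 0.34 and 1.59 ± 0.45 (edgeR adjusted p = 0.025786, 0.033005 and 0.0104). Cardiomyocyte markers moved the same way in these sums, with 3.52% to 5.02% of UMIs in control P10 and 1.26% to 1.89% in control P6, and Ttn, the sarcomere's giant protein, with 0.648% to 1.56% and 0.146% to 0.21%. The class's own endothelial markers took 0.387% to 0.753% in control P10 and 1.35% to 1.49% in control P6, and ribosomal protein genes 0.336% to 0.84% and 1.83% to 2.29%. The part of these shares in the result was not tested.

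In fibroblast-like nuclei Acsl1 was the 1 member of 31 tested that rose with age, where 7.16% of all genes rose and 6.94% fell. It had 141, 125 and 196 CPM in control P10 and 32.8, 67.2 and 68.6 CPM in control P6 (log2 1.39 ± 0.30, edgeR adjusted p = 0.0049621), without overlap. Cardiomyocyte markers took 1.58% to 2.46% of UMIs there in control P10 and 0.802% to 0.916% in control P6, and their part was not tested. In endocardial-like nuclei 0 of 19 members were called in either comparison, with 2 at an unadjusted p under 0.05 in the knockout comparison, or 10.5% where 11.3% of all genes were, and 1 with age, or 5.3% where 24.1% were. DESeq2 called 0 in both, where edgeR called 0.628% of all genes down and 1.19% up in the knockout comparison and 4.26% down and 3.93% up with age.

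The knockout comparison called 1 member in the other nuclei. In endothelial-like nuclei Acaa2 had 156, 95.1 and 210 CPM in KO P10 and 276, 365 and 408 CPM in control P10 (log2 -1.18 ± 0.33, edgeR adjusted p = 0.047493), without overlap, where 1.1% of all genes fell and 1.73% rose. It was the 1 call among 30 members, and it was lost with DESeq2, with only the P10 libraries in the fit and in 6 of the 9 fits that left out 1 library: those without control P6 replicate 2, control P10 replicate 2 or 3, or KO P10 replicate 1, 2 or 3. In these sums Malat1 took 3.03% to 4.62% of UMIs in KO P10 and 5.96% to 7.30% in control P10, ribosomal protein genes 1.11% to 1.41% and 0.336% to 0.84%, and erythroid markers 0.435% to 2.08% and 0.189% to 0.395%, and their part was not tested. In fibroblast-like nuclei 0 of 31 members were called (6 at an unadjusted p under 0.05, or 19.4% where 16.4% of all genes were, and 1 by DESeq2), where 1.59% of all genes fell and 2.23% rose, and the members' median log2 fold change was 0.04. Slc27a1 had 14.9, 14.1 and 15.6 CPM there in KO P10 and 41.4, 29.9 and 29.4 CPM in control P10, without overlap (log2 -1.09 ± 0.45, edgeR adjusted p = 0.21077). The fibroblast-like sums of KO P10 held 308460 to 511108 UMIs of tested genes, so these Slc27a1 values rest on few UMIs. In fibroblast-like sums Malat1 took 2.96% to 5.33% of UMIs in KO P10 and 6.44% to 7.84% in control P10. Cardiomyocyte markers took 2.52% to 3.63% and 1.58% to 2.46%, and erythroid markers 0.452% to 1.96% and 0.185% to 0.287%. The members together took 0.395% to 0.468% and 0.305% to 0.381%, and the part of these shares was not tested.

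Whether changes differed between cardiomyocyte-like and fibroblast-like nuclei was tested in 1 fit with the library as a block. In the knockout comparison 0 members differed, where 0.942% of all genes tested were lower and 1.15% higher in cardiomyocyte-like nuclei. With age 6 members differed, all with the lower change in cardiomyocyte-like nuclei, where 2.01% of all genes did so and 0.767% had the higher change. The differences in log2 change were -1.68 ± 0.37 for Cpt1b, -1.66 ± 0.44 for Slc27a1, -1.04 ± 0.28 for Acsl1, -1.01 ± 0.25 for Acadvl, -0.88 ± 0.25 for Acadm and -0.75 ± 0.21 for Fabp3 (edgeR adjusted p between 0.002262 and 0.032926). Leaving out control P10 replicate 3 left 0 of these calls. The share of cardiomyocyte markers in fibroblast-like sums, given above with age, moved with these differences, and its part was not tested. That share also differed between KO P10 and control P10, as given above, and its part in the knockout comparison was not tested.

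Between classes the members differed in how strongly they marked cardiomyocytes. In control P10, pooled over libraries and as shares of the UMIs of the class, the level in cardiomyocyte-like nuclei was 16.7 times that in fibroblast-like nuclei for Ucp3, 5.85 times for Acacb, 4.44 times for Pdk4, 3.98 times for Slc27a1, 3.91 times for Cpt1b and 3.41 times for Slc22a5. For 10 members the ratio was above 2. It was 0.98 for Fabp3, 0.97 for Etfb and 0.78 for Hadh, genes whose levels were several times higher in Malat1-poor droplets than in nuclei. Relative to endothelial-like nuclei 25 of 37 members were lower in cardiomyocyte-like nuclei and 3 were more than 2 times higher, Ucp3, Slc27a1 and Acacb. These ratios describe droplets and carry no test. In control P10, endothelial-like sums held 3.52% to 5.02% cardiomyocyte markers, against 6.02% to 6.97% in cardiomyocyte-like sums. Endothelial markers took 0.387% to 0.753% of endothelial-like UMIs. Ribosomal protein genes took 0.336% to 0.84% of those UMIs and 0.149% to 0.363% in cardiomyocyte-like nuclei. The part of these shares in the ratios was not tested.

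A further 85 genes of the pathway that are not members were listed with roles in uptake, peroxisomal and mitochondrial oxidation, lipid storage, fuel choice and regulation, and 73 of them were tested in cardiomyocyte-like nuclei. In the knockout 5 rose and 5 fell, where 7.1% of all genes tested rose and 6.82% fell. The 5 that fell include the targeted genes Esrra and Esrrg. The median log2 fold change was -0.09 over the 73 and 0.01 over all genes. Ppara had 71.4, 110 and 148 CPM in KO P10, 1100, 495 and 678 CPM in control P10, and 547, 258 and 245 CPM in control P6, and KO P10 lay below all control libraries (log2 -2.78 ± 0.38 over control P10, edgeR adjusted p = 0.00021522). Beside Esrra, Esrrg and Ppara, Slc25a42, a mitochondrial carrier of coenzyme A, fell (log2 -1.06 ± 0.33, edgeR adjusted p = 0.042928), and Pdk2 was the other gene that fell.

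Acot1, a cytosolic thioesterase and near copy of Acot2, had 36.8, 29.6 and 24.2 CPM in KO P10, 7.33, 10.3 and 9.28 CPM in control P10, and 11.9, 23.6 and 27.7 CPM in control P6. It was higher in every KO P10 library than in every control P10 library (log2 1.69 ± 0.35, edgeR adjusted p = 0.0052366), and it rose in Malat1-poor droplets as well (log2 1.16 ± 0.27, edgeR adjusted p = 0.020983). Plin4, a lipid droplet coat protein, Dbi, the acyl-CoA binding protein, and Pdk1, a pyruvate dehydrogenase kinase, rose by log2 values of 1.36 ± 0.35, 0.96 ± 0.29 and 0.96 ± 0.30 (edgeR adjusted p = 0.017235, 0.036262 and 0.044763). Angptl4, an inhibitor of lipoprotein lipase, was the other gene that rose.

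With age 6 of the 73 rose and 5 fell in controls, where 8.59% of all genes tested rose and 9.29% fell. Lpin1, which makes diacylglycerol, had 110, 81.6 and 74.8 CPM in control P10 and 49.8, 13.3 and 19.4 CPM in control P6 (log2 1.72 ± 0.35, edgeR adjusted p = 0.0039284). Cd36, the main fatty acid translocase of the heart, had 1490, 760 and 1048 CPM in control P10 and 725, 522 and 393 CPM in control P6 (log2 1.01 ± 0.30, edgeR adjusted p = 0.03041). Both genes were higher in every control P10 library. Mgll, monoacylglycerol lipase, and Ppara rose by 0.79 ± 0.23 and 1.11 ± 0.35, while Fabp5, Acot1 and Dgat1 had log2 fold changes of -1.34 ± 0.36, -1.19 ± 0.36 and -0.99 ± 0.27, each past the threshold in the same edgeR fit. Cd36 and Ppara therefore differed with age in the opposite direction to Cpt1b in the same nuclei.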

How the data were processed

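Per the file names and values, the authors deposited raw UMI counts (whole numbers, a gene per row and a barcode per column) in which exonic and intronic reads are joined. Per the submitters' processing notes, STAR 2.5.2a was the aligner and mm10 the genome build. The annotation, the use of strand and the rule that kept 3000 or 4000 barcodes per library are not given in the sources used here. Mitochondrial genes, barcodes under 500 UMIs, 464 shared barcodes and 1328 candidate doublets (per library, the top 5% by Scrublet score) were removed, leaving 25311 of 33000 barcodes. Clustering (scanpy 1.11.5; 2000 variable genes without members, 30 components, 15 neighbours, resolution 1) gave 14 clusters, named from 13 marker lists.

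UMIs summed per library and class were tested with edgeR 4.0.16 (R 4.3.3): quasi-likelihood test, two-sided, TMM, filterByExpr, 1 fit of 9 libraries, Benjamini-Hochberg over all genes, threshold 0.05. Alternatives were DESeq2 1.42.0, other filters, fits, clusters, blocks and each library left out. The script was tested on simulated data. Positions are from GENCODE vM21 (GRCm38, 1-based).

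The members and lists were chosen with earlier results of these data known. Chosen after the data were seen were the Malat1 limit (40% of the median over clusters), the naming rules that left unnamed a cluster led by cell-division genes and a cluster in which most markers of its best class were not raised (the second rule was dropped and restored before any test), the left-out shared barcodes, the Malat1-poor fits, scaling without TMM, the shorter motifs, the background of the droplet ratio, Chkb and Fabp3-ps1. Leiden clustering was first run with fewer iterations and then to convergence, before any test. Named genes were every member called in cardiomyocyte-like nuclei, the 5 most abundant not called, members called in other classes, and at most 8 further pathway genes per comparison. Pnpla2 was added with its CPM, and Pdk2 and Angptl4 by name, after values were seen.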

Additional observations from a re-analysis of the deposited data

Results flagged for a closer look

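For 6 members the change of control P10 over control P6 differed between cardiomyocyte-like and fibroblast-like nuclei in a test of the difference itself (class by age interaction in edgeR, adjusted p under 0.05). The log2 change in cardiomyocyte-like nuclei minus that in fibroblast-like nuclei was -1.68 for Cpt1b, -1.66 for Slc27a1, -1.04 for Acsl1, -1.01 for Acadvl, -0.88 for Acadm and -0.75 for Fabp3. Cpt1b had log2 changes of -0.66 in cardiomyocyte-like and 0.87 in fibroblast-like nuclei, and Slc27a1 of -0.47 and 1.13, so these genes had opposite signs in the classes. Neither change in fibroblast-like nuclei passed the test by itself, nor did that of Slc27a1 in cardiomyocyte-like nuclei. The call of Cpt1b in cardiomyocyte-like nuclei was lost in 12 of 20 alternative settings and libraries left out. Acsl1 was positive in both classes, at 0.45 and 1.39. Cardiomyocyte markers took a larger share of fibroblast-like UMIs in control P10 (1.58% to 2.46%) than in control P6 (0.802% to 0.916%), and their part was not tested. The number of members called was between 0 and 8 when each library was left out in turn.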

How the results depend on the processing

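In cardiomyocyte-like nuclei 4 members were called in the knockout comparison, against 1 with classes set from each nucleus's own marker UMIs, 7 in sums over all barcodes and between 2 and 5 without each replicate in turn. Over all genes the 1437 calls became 486, 2587 and 605 to 1500 in the same settings. With age the 2 members called became 1 with no filter on low counts, 0 with only the groups compared, 1 at clustering resolution 0.5, 1 with own-marker classes, 8 over all barcodes, 1 with the Malat1-poor cardiomyocyte cluster added and 0 to 2 without each replicate. Those called with no filter, over all barcodes, with that cluster added and without control P10 replicate 1 rose. The 1846 calls over all genes became 215 with own-marker classes, 3793 over all barcodes, 1189 with that cluster added and 706 to 2255 without each replicate. The change of Acadvl with age reversed to 0.52 over all barcodes and to 0.21 with that cluster added; the cause was not tested.

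In Malat1-poor droplets the 7 members called in the knockout comparison became 4 with no filter, 4 with only the groups compared and 4 to 9 without each replicate, and the 467 calls over all genes became 195 with only the groups compared and 110 to 685 without each replicate. With age the 0 members became 1 with DESeq2 and 1 with only the groups compared, and 0 to 1 without each replicate, while the 1092 calls over all genes became 1814 with no filter and 562 to 1612 without each replicate. In endothelial-like nuclei the 1 member called in the knockout comparison became 0 with DESeq2, 2 with no filter, 0 with only the groups compared and 0 to 2 without each replicate, and the 175 calls over all genes became 113 with only the groups compared and 45 to 233 without each replicate. With age the 5 members became 2 with DESeq2, 3 with no filter and 1 to 8 without each replicate, and the 1704 calls over all genes became 1079 to 1914. In fibroblast-like nuclei the 0 members of the knockout comparison became 1 with DESeq2 and 0 to 1 without each replicate, the 1 member with age 1 to 3, the 326 calls over all genes 97 to 399 and the 1203 with age 403 to 1829. In endocardial-like nuclei the 0 members became 0 to 1 without each replicate, the 78 calls over all genes 45 with DESeq2, 50 with only the groups compared and 11 to 117 without each replicate, and the 352 with age 68 to 528. The 6 members whose change with age differed between classes became 1 with no filter and 0 to 8 without each replicate.

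Replicate numbers are not stated to pair the libraries. Deviations from group means were correlated between same-numbered libraries. In cardiomyocyte-like nuclei replicates 1 to 3 gave 0.103, -0.134 and 0.121 for KO P10 with control P10, and 0.264, 0.0295 and -0.0027 with age. For replicate 1, KO P10 with control P10 gave 0.450 in Malat1-poor droplets and 0.0414 to 0.124 in fibroblast-, endothelial- and endocardial-like nuclei. With age replicate 1 gave 0.0318 in Malat1-poor droplets and 0.149 to 0.242 in those nuclei. With the replicate block 4 members were called in cardiomyocyte-like nuclei in the knockout comparison, and 2 with age. In endothelial-like nuclei the replicate block gave 2 members and 301 genes in the knockout comparison and 9 members with age, and in Malat1-poor droplets it gave 1 member with age. Members with few UMIs, such as Acsl5 with 65 and Pnpla2 with 193 over the 9 libraries of cardiomyocyte-like nuclei, allow little precision, and a missed threshold does not show that levels were equal.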
